A study of Mus musculus with 4 samples.

Results

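The neuronal pentraxins Nptx1 (ENSMUSG00000025582), Nptx2 (ENSMUSG00000059991) and Nptxr (ENSMUSG00000022421) were followed through single-cell transcriptomes of the mouse ventromedial prefrontal cortex (vmPFC). They are 3 of the 31053 genes in the count matrices and were taken as the named family. Male C57BL/6 mice of 8 weeks received rAAV2-retro viruses, which enter axon terminals and travel back to the cell body, in 5 targets of the vmPFC: the dorsomedial striatum, the lateral hypothalamus, the basolateral amygdala, the mediodorsal thalamus and the agranular insula. Each virus carried EGFP and a barcode of its target under a CAG promoter. A barcode transcript is thus meant to mark a neuron with an axon there. Of the 4 libraries, 3 were unsorted and came from 1 mouse each. The other was made from cells of 3 mice that were pooled and sorted for EGFP. All mice carried all of the viruses, and no library came from an uninjected mouse.

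Neuronal pentraxins are proteins of excitatory synapses that bind AMPA-type glutamate receptors and help to hold them in clusters. NPTX1 and NPTX2 (also called NARP) are secreted, whereas the neuronal pentraxin receptor, NPTXR, is anchored in the membrane and assembles with the other two. NPTX2 is known as a protein whose gene is induced by neuronal activity.

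Nptx1 lies on chromosome 11 from 119538719 to 119547753 (minus strand), Nptx2 on chromosome 5 from 144545902 to 144557478 (plus strand) and Nptxr on chromosome 15 from 79786351 to 79804766 (minus strand), all in GRCm38 with GENCODE M21 gene models. Npcd, an annotated gene on the same strand, starts upstream of Nptxr and overlaps it, and 17.2% of the exonic bases of Nptxr also belong to Npcd. Reads in the shared bases cannot be assigned to either gene. The 3′ end, where this chemistry counts transcripts, held 3324 exonic bases of Nptxr beyond the end of Npcd. Npcd had 1 UMI (unique molecular identifier, 1 counted transcript) in all cells, and Nptxr had 73101 UMIs in excitatory neurons.

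The excitatory neurons were the 9368 cells that the authors' metadata assign to 7 subtypes, with 2816, 2486 and 2463 in unsorted replicates 1 to 3 and 1603 in the sorted library. The median neuron had 21343.5 to 23213 UMIs by unsorted library, and 31669 after sorting. Pairs of libraries shared 5 to 30 cell barcodes, of which 0 to 4 were excitatory neurons in both. Sorting, the animals and the library cannot be told apart in the sorted sample, so it is given apart as 1 library. The subtypes were checked on their name genes: Syt6 was at 132 CPM (a gene's UMIs scaled to the same total in every group of cells) in L6-Syt6 against 1.53 to 7.07 CPM in the other subtypes, and Npy was at 238 CPM in L6-Npy against 1.89 to 5.71 CPM. Because the subtypes were clustered on the expression of the same cells, differences between subtypes are described without a test.

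The 3 genes followed different orders across the subtypes, although all of them had a high level in L6-Npy. Nptx1 was high in both layer 6 subtypes, Nptxr was high in every subtype but L6-Syt6, and Nptx2 was found in a minority of neurons. Levels below are means ± SD over the 3 unsorted libraries unless a library is named, and they are compared between subtypes of 1 gene and not between genes.

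Nptx1, the first of the secreted members, was highest in L6-Syt6 at 765 ± 2.05 CPM, with 763, 767 and 764 CPM in unsorted replicates 1 to 3. L6-Npy followed at 712 ± 27.9 CPM (697, 744 and 694 CPM). The ranges of these subtypes did not overlap in the unsorted libraries, but the order was opposite in the sorted library, at 932 CPM in L6-Syt6 and 995 CPM in L6-Npy. L2/3-Calb1 was at 446 ± 11.9 CPM, L5-Htr2c at 363 ± 13.4 CPM and L5-S100b at 349 ± 21.0 CPM, and the ranges of L5-Htr2c and L5-S100b overlapped. L2/3-Rorb was lower at 170 ± 15.8 CPM. L5-Bcl6 was lowest at 94.6 ± 32.0 CPM, and its libraries spread widely, at 107, 58.3 and 119 CPM. A lowest subtype below every library of the other 6 was found for 32.2% of the 8159 genes that reached 20 CPM in a subtype, and a highest subtype above all others for 42.5%, so such gaps are common.

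Nptxr, the membrane-anchored member, was highest in L6-Npy at 741 ± 22.8 CPM, followed by L2/3-Calb1 at 683 ± 28.9 CPM and L5-S100b at 676 ± 13.8 CPM. The ranges of L2/3-Calb1 and L5-S100b overlapped, and in the sorted library L2/3-Calb1 (1182 CPM) was slightly above L6-Npy (1167 CPM). L2/3-Rorb was at 534 ± 22.0 CPM, and L5-Htr2c (273 ± 5.54 CPM) and L5-Bcl6 (268 ± 20.1 CPM) overlapped each other. L6-Syt6 stood far below, with 32.7, 35.2 and 37.5 CPM in the 3 unsorted libraries and 49.7 CPM in the sorted one. With 1 CPM added to each mean, the next subtype, L5-Bcl6, was 7.44-fold higher. A gap of at least 5-fold above the lowest subtype was found for 43 genes, 0.527% of the 8159, and Nptxr had the 17th largest. The neighbouring gene Cbx6, which codes for a Polycomb protein and shares no exonic base with Nptxr, was at 158 ± 3.77 CPM in L6-Syt6 and at 202 to 256 CPM in the other subtypes.

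Nptx2, the activity-regulated secreted member, was highest in L6-Npy at 54.1 ± 6.25 CPM, with 56.2, 47.1 and 59.1 CPM in the unsorted libraries and 82.4 CPM in the sorted one. L5-S100b was at 51.1 ± 4.10 CPM and L2/3-Calb1 at 35.8 ± 12.2 CPM, and each range overlapped with the next, although all 4 libraries held this order. L6-Syt6 was at 23.1 ± 3.35 CPM and L2/3-Rorb at 11.5 ± 2.85 CPM, without overlap. L5-Bcl6 and L5-Htr2c were lowest, at 5.97 ± 3.81 and 3.72 ± 2.27 CPM, from 3 to 21 UMIs per library, and neither had a Nptx2 UMI in the sorted library. That library held 67 L5-Bcl6 but only 4 L5-Htr2c neurons, so the zero of L5-Htr2c says little. The sorted library was above the unsorted mean for all 3 genes in every subtype except Nptx2 in these last subtypes. For Nptxr the sorted library was 1.33- to 2.01-fold higher by subtype, and for its neighbour Cbx6 1.45- to 1.97-fold. The 2.01 and the 1.45 came from the 4 sorted L5-Htr2c neurons, with 45 and 24 UMIs. The other subtypes were at 1.33 to 1.73 for Nptxr and at 1.64 to 1.97 for Cbx6.

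**Figure D1:**
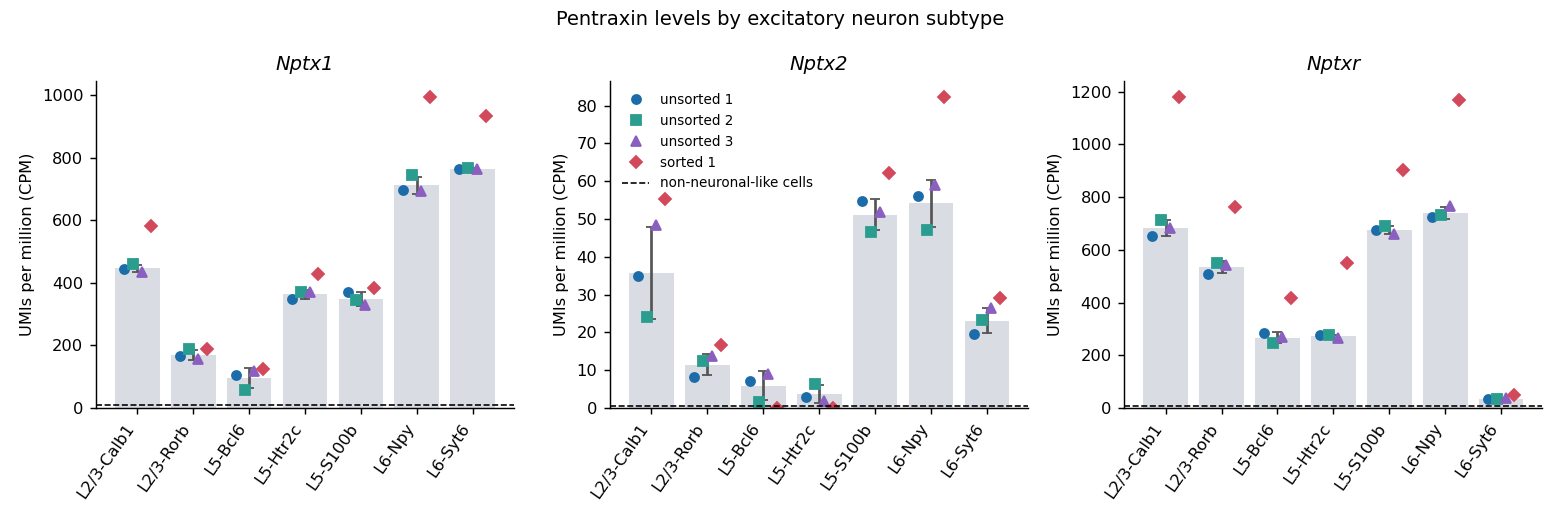
Levels of Nptx1, Nptx2 and Nptxr by excitatory subtype, in CPM on a linear axis that differs between panels. Grey bars and error bars give the mean and SD of the 3 unsorted libraries, symbols give each library, and the dashed line gives the mean of non-neuronal-like cells without oligodendrocyte-precursor-like cells. Nptxr in L6-Syt6 (35.1 CPM) lies close to the axis while all other subtypes lie at 268 CPM or more.

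The levels came from very different shares of neurons. After each neuron was thinned to 10000 UMIs, which left out 49 to 111 shallower neurons per library, 99.7% ± 0.0926 of L6-Syt6 neurons had a Nptx1 UMI, against 38.8% ± 3.05 in L5-Bcl6. For Nptxr the share was 24.1% ± 0.604 in L6-Syt6 (45.5% before thinning) and 91.2% or more in each of the other 6 subtypes. A Nptx2 UMI was found in 25.5% ± 2.95 of L5-S100b and 25.2% ± 2.91 of L6-Npy neurons, and in 1.00% ± 1.08 of L5-Htr2c neurons.

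**Figure D2:**
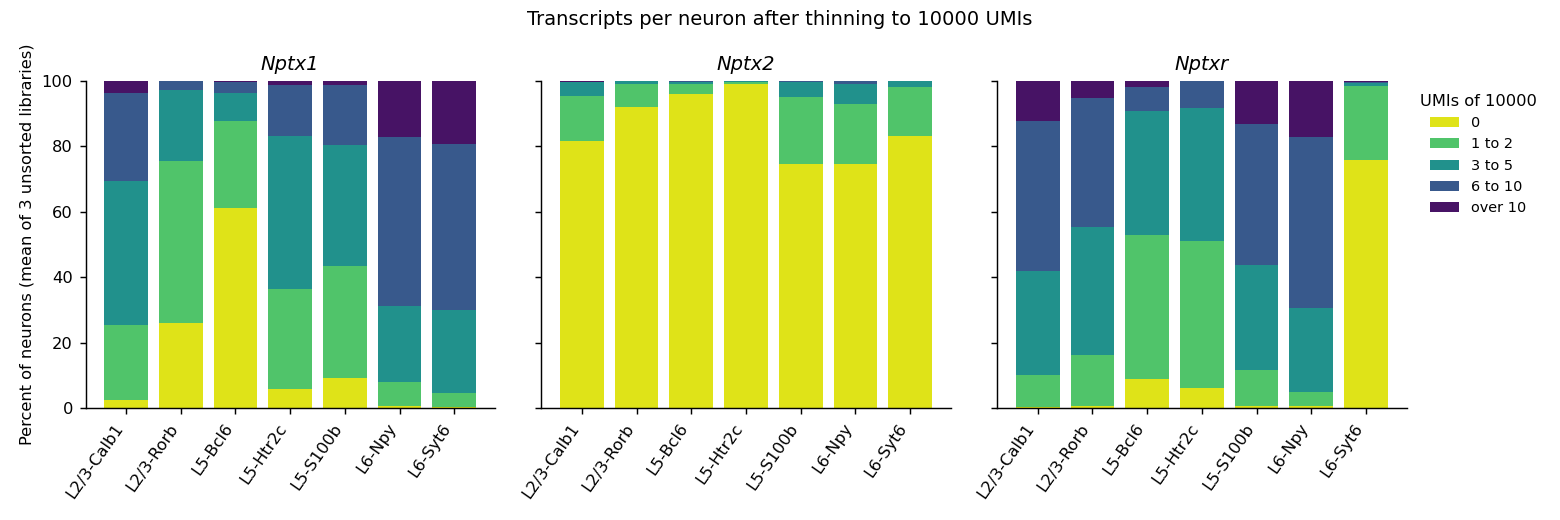
Share of neurons, in percent, by the number of UMIs of each gene after thinning to 10000 UMIs per neuron, averaged over the 3 unsorted libraries. Colours run from 0 UMIs (yellow) to over 10 (dark). Most L6-Syt6 neurons have no Nptxr UMI and several Nptx1 UMIs, while most neurons of every subtype but L5-Bcl6 have a Nptx1 UMI.

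Within L6-Syt6, 75.5% to 76.6% of thinned neurons per unsorted library and 68.9% in the sorted library had no Nptxr UMI. Neurons with 3 or more Nptxr UMIs made up 1.01% to 1.65% of the subtype and held 23.1% to 32.2% of its Nptxr UMIs. In the unsorted libraries, these 15 to 23 neurons per library had Syt6 at 58.9 to 91.5 CPM, against 131 to 138 CPM in the neurons without a Nptxr UMI. Foxp2, another marker of this subtype, was at 88.3 to 133 CPM against 233 to 243 CPM. In the sorted library the difference was smaller, at 149 against 177 CPM for Syt6. Markers of other subtypes differed by library. Neurons with 3 or more Nptxr UMIs had Npy at 3.98 to 85.9 CPM by unsorted library, against 2.01 to 2.71 CPM without one. Rorb was at 4.0 to 51 against 2.3 to 2.6 CPM, and S100b at 0 to 2.32 against 1.85 to 2.95 CPM. Part of the low Nptxr level of L6-Syt6 thus sat in few neurons with less of the subtype's own markers. Whether these were doublets or neurons of another subtype was not tested.

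Outside the excitatory neurons, the highest Nptx2 level belonged to oligodendrocyte-precursor-like cells, a glial class. Classes were rebuilt here by clustering cells that are not in the metadata and are called "-like". In oligodendrocyte-precursor-like cells (1611 unsorted cells), Nptx2 was at 42.0, 44.8 and 38.3 CPM, a mean of 41.7 ± 3.27. Astrocyte-like, oligodendrocyte-like, microglia-like and endothelial-like cells had means of 0.545 to 1.01 CPM, and mural-like and macrophage-like cells had no Nptx2 UMI in 603 and 83 cells, which allows shares of cells with a UMI of up to 0.498% and 3.61%. Every precursor-like library was thus far above every library of these classes. After thinning to 2000 UMIs, 7.67% ± 0.499 of precursor-like cells had a Nptx2 UMI (median depth 4139 UMIs), against 0.107% ± 0.0722 of the other non-neuronal-like cells (7348 cells, median depth 3990.5 UMIs), the share that free RNA could give.

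As a measure of free RNA, Slc17a7, the vesicular glutamate transporter of excitatory neurons, was at 25.0 ± 7.15 CPM in precursor-like cells and at 14.2 to 24.9 CPM in the 5 other classes named here except the macrophage-like one. Gad1, which codes for the GABA-synthesizing enzyme of inhibitory neurons, was at 51.1 ± 2.17 CPM in precursor-like cells and at 4.68 to 7.99 CPM in those 5 classes. In the 1176 precursor-like cells with no UMI of Slc17a7, Gad1 or Gad2, Nptx2 was at 41.5 ± 2.36 CPM, beside 41.7 CPM in all of them. Of the 1611 precursor-like cells, 1479 had no Slc17a7 UMI, so cells without these UMIs can still hold free RNA. Nptx1 and Nptxr in precursor-like cells were at 20.5 ± 4.35 and 36.7 ± 4.76 CPM, against 10.2 ± 0.457 and 8.86 ± 1.21 CPM in the other non-neuronal-like cells. The Nptxr level of L6-Syt6 neurons, 35.1 CPM, was therefore above that background of 8.86 CPM and close to the level of precursor-like cells.

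Inhibitory neurons held little Nptx1 and an intermediate level of Nptxr. Nptxr was at 111 ± 4.33 CPM in CGE-type-like interneurons (860 cells) and 94.8 ± 6.82 CPM in MGE-type-like interneurons (491 cells), and Nptx1 was at 11.9 ± 3.24 and 26.9 ± 3.17 CPM. Nptx2 was at 18.0 ± 2.73 CPM in the CGE type, with 18.4, 15.2 and 20.6 CPM by library, and at 4.34 ± 0.522 CPM in the MGE type, without overlap. Of the other pentraxin genes, Apcs and Crp had no UMI in the excitatory neurons, which allows a share of up to 0.032%, Ptx3 had 4 UMIs and Ptx4 had 50. These intervals cover counting error only.

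The genes whose subtype profile was most like each member's were named by Pearson's r of log2(CPM + 1) over the 7 subtypes in 8158 other genes, as a description over 7 points that share libraries. For Nptxr these were Mn1 (r = 0.979), Unc5d (0.979), a netrin receptor, and C130071C03Rik (0.972), and r over the 6 subtypes measured in the sorted library was 0.985, 0.997 and 0.939. Unc5d fell to 1.35 CPM in L6-Syt6 from 45.9 CPM in L6-Npy. For Nptx2 they were Rspo2 (0.957), which codes for a secreted Wnt pathway agonist, Kbtbd11 (0.956) and Ccdc80 (0.940), with 0.978, 0.835 and 0.895 in the sorted library. For Nptx1 they were Gga2 (0.979), Timm8a1 (0.963) and Tmem126a (0.958), whose levels spanned less (20.6 to 34.0 CPM for Gga2) and whose r in the sorted library was 0.811, 0.594 and 0.233. Among the members, r was 0.286 between Nptx2 and Nptxr over 7 subtypes and 0.946 without L6-Syt6. It was −0.219 and 0.633 between Nptx1 and Nptxr, and 0.603 and 0.637 between Nptx1 and Nptx2. Over the 6 subtypes of the sorted library, r for these pairs was 0.231, −0.195 and 0.794.

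Neurons with a projection barcode were next compared with neurons without one. Barcode-high neurons had 5 or more UMIs of the feature named barcode, taken here as the pooled count of the viral barcodes, and barcode-zero neurons had 0. A barcode-zero neuron can also be a projection neuron whose barcode was missed, and in the sorted library it had passed the sort for EGFP. The paper took limits per target from non-neuronal and EGFP-negative cells before it called a neuron barcoded. Those limits were not used here, so a low barcode count need not mark a projection. Raw counts were summed per library and group and tested over all genes with edgeR's quasi-likelihood test, with the library as a block, and a called gene had an adjusted p (Benjamini-Hochberg) below 0.05 together with a log2 fold change of 0.5 or more in either direction. Barcode-high neurons were deeper in every library of every subtype tested, for example 25554 to 34389 against 19306 to 28185 median UMIs in L5-S100b. L5-Htr2c had too few barcode-high neurons (7 with 5 to 19 and 1 with 20 or more barcode UMIs in the unsorted libraries) and was not tested, and L2/3-Calb1 and L5-Bcl6 were tested on the unsorted libraries alone.

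Nptx2 was called higher in barcode-high neurons of L5-S100b and L6-Npy, and neither Nptx1 nor Nptxr was called in any subtype. In L5-S100b, barcode-zero neurons had 26.4, 26.2 and 24.5 CPM of Nptx2 in unsorted replicates 1 to 3 and 30.2 CPM after sorting, all after scaling by TMM factors. Barcode-high neurons had 64.6, 51.5, 60.8 and 67.8 CPM. All 4 libraries were higher and the groups did not overlap: the log2 fold change was 1.20 (SE 0.131, 2.29-fold, edgeR adjusted p = 1.64e-07), in a comparison that called 2.7% of 11477 genes. In L6-Npy, the values were 43.4, 41.6, 43.9 and 35.7 CPM in barcode-zero and 77.7, 64.8, 64.7 and 100.1 CPM in barcode-high neurons. Again 4 of 4 libraries were higher without overlap, with a log2 fold change of 0.91 (SE 0.122, 1.88-fold, edgeR adjusted p = 8.10e-06), and 0.801% of 10365 genes were called. The share of all genes whose groups did not overlap was not counted, so the gap alone does not set Nptx2 apart.

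The other subtypes gave no call for Nptx2. In L6-Syt6, barcode-zero neurons had 19.2, 24.5, 25.6 and 42.3 CPM and barcode-high neurons 17.3, 20.0, 28.3 and 22.4 CPM, with the sorted library last. The groups overlapped and 1 of 4 libraries was higher, with a log2 fold change of −0.24 (SE 0.134, 95% interval −0.51 to 0.02, edgeR adjusted p = 0.291), where 1.67% of genes were called. In L2/3-Rorb, all 4 libraries were higher but from 3 to 7 UMIs in the barcode-zero neurons of each, with a log2 fold change of 0.66 (SE 0.322, edgeR adjusted p = 0.716) beside 0.139% of genes called. In L2/3-Calb1, values of 22.4, 30.6 and 54.8 CPM stood against 65.8, 24.4 and 47.3 CPM. Only unsorted replicate 1 was higher, with a log2 fold change of 0.33 (SE 0.262, edgeR adjusted p = 0.969, 0.18% of genes called). Nptx2 did not pass the filter on low counts in L5-Bcl6.

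The difference between subtypes was itself tested, as an interaction with L6-Syt6 as the reference, a test chosen after seeing the data. The log2 fold change of Nptx2 was larger than in L6-Syt6 by 1.44 (SE 0.220) in L5-S100b (edgeR adjusted p = 0.000287, 3.01% of genes called) and by 1.16 (SE 0.215) in L6-Npy (edgeR adjusted p = 0.00588, 1.53% called). In L2/3-Rorb it was larger by 0.91 (SE 0.452), which did not pass (edgeR adjusted p = 0.427, 0.736% called). No interaction was called for Nptx1 or Nptxr.

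**Figure D3:**
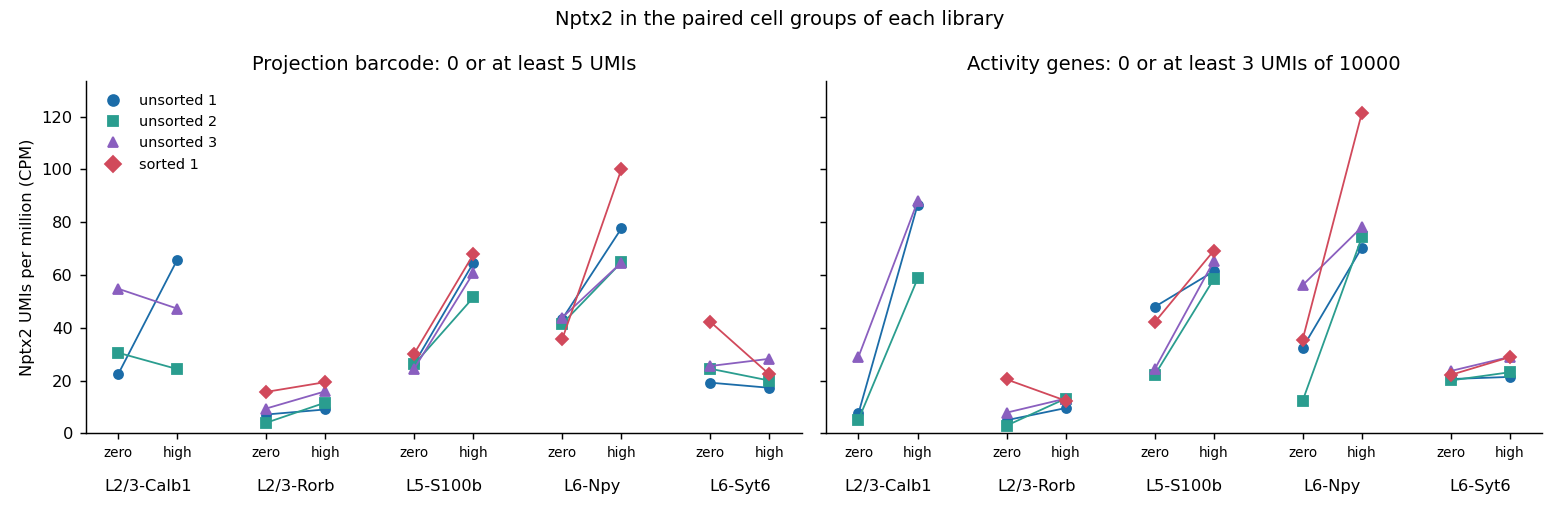
Nptx2 in CPM (linear axis, TMM-scaled) in the paired groups of each library, for barcode-zero and barcode-high neurons (left) and activity-zero and activity-high neurons (right), with a line per library. In L5-S100b and L6-Npy all 4 lines rise in both panels, from 24.5 to 30.2 up to 51.5 to 67.8 CPM for the barcode groups of L5-S100b, while L6-Syt6 shows no common direction on the left.

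Nptx2 was also followed over 4 levels of barcode UMIs, as CPM of the summed counts without TMM factors. In L5-S100b the unsorted means were 25.5 ± 1.14 CPM at 0, 36.4 ± 7.47 at 1 to 4, 46.0 ± 7.75 at 5 to 19 and 64.1 ± 8.33 at 20 or more. Each library was highest at 20 or more, at 73.4, 57.3, 61.5 and 83.4 CPM. In L6-Npy the means were 41.7 ± 1.16, 40.1 ± 21.5, 60.6 ± 4.47 and 86.4 ± 19.4 CPM. The sorted library did not hold this order, with 111 CPM at 5 to 19 and 66.9 CPM at 20 or more, the latter from 29 UMIs in 15 neurons. L6-Syt6 stayed between 15.9 and 28.6 CPM in the unsorted libraries at every level, and its sorted library went from 46.4 CPM at 0 to 20.8 CPM at 20 or more.

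**Figure D4:**
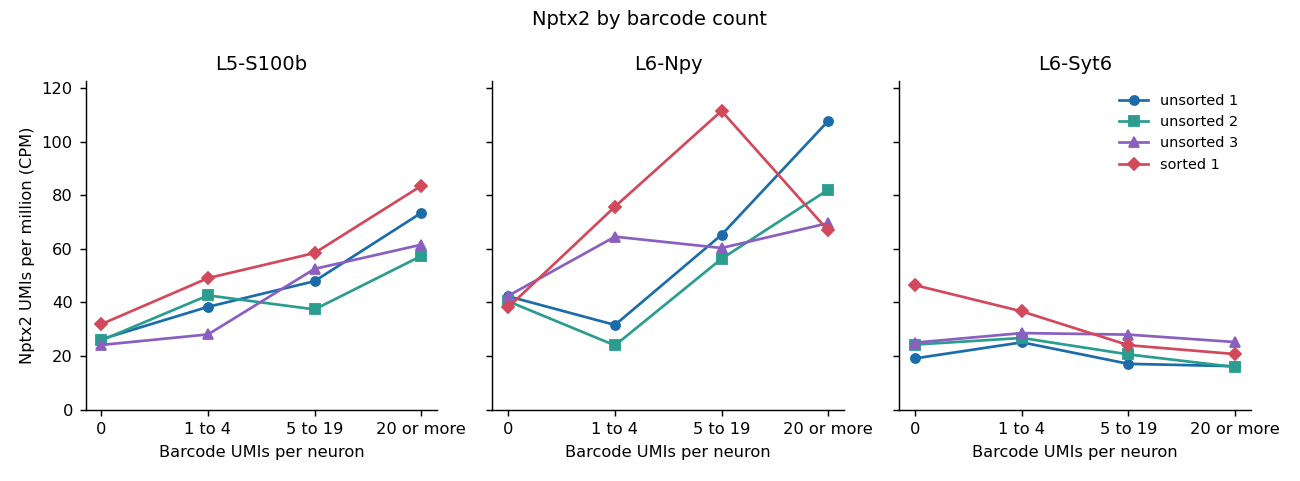
Nptx2 in CPM (linear axis) against the number of barcode UMIs per neuron, with a line per library, in 3 subtypes. All libraries are highest at 20 or more barcode UMIs in L5-S100b, 3 of 4 are in L6-Npy, and none is in L6-Syt6.

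Over all excitatory neurons together, Nptx2 was called higher (19.5, 23.5, 25.6 and 34.5 CPM in barcode-zero against 35.3, 32.3, 39.1 and 40.0 CPM in barcode-high neurons, log2 fold change 0.55, SE 0.101, edgeR adjusted p = 0.0459, 2.34% of genes called). This call was lost on leaving out any 1 of the unsorted libraries, with 0.44 (edgeR adjusted p = 0.234) without unsorted replicate 1, 0.57 (0.275) without replicate 2 and 0.52 (0.302) without replicate 3. Nptxr had 170, 169 and 153 CPM in barcode-zero against 377, 395 and 422 CPM in barcode-high neurons of the unsorted libraries. In the sorted library the order was opposite, at 506 against 422 CPM. Nptxr was not called (log2 fold change 0.90, SE 0.282, edgeR adjusted p = 0.146). Without the sorted library it was called, at 1.27 (SE 0.0191). The makeup of the groups differed in the same libraries: L6-Syt6, the subtype with little Nptxr, made up 67.7% to 71.1% of barcode-zero and 38.3% to 41.2% of barcode-high neurons in the unsorted libraries, and 47.5% and 49.1% in the sorted one. Within subtypes, the log2 fold change of Nptxr was −0.25 to 0.16 with no call.

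Nptx1 in barcode-high neurons of L5-S100b was at 387, 370, 354 and 388 CPM against 356, 280, 276 and 321 CPM. All 4 libraries were higher, with a log2 fold change of 0.28 (SE 0.0590, edgeR adjusted p = 0.00215), a size under the limit for a call. In L5-Bcl6, barcode-zero neurons had 235, 109 and 76.2 CPM and barcode-high neurons 75.5, 36.7 and 118 CPM. Unsorted replicate 3 went the other way from the others, and the log2 fold change of −0.91 (SE 0.245) was not called (edgeR adjusted p = 0.272, 0.0686% of genes called). Without that library it was −1.61 and called (edgeR adjusted p = 5.28e-15), on 2 libraries, and without unsorted replicate 1 it was −0.33 (edgeR adjusted p = 0.909). In the remaining subtypes Nptx1 had log2 fold changes of −0.17 to 0.04, and over all excitatory neurons −0.27 (SE 0.0558, edgeR adjusted p = 0.0603).

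Nptx2 was then compared by neuronal activity, since its gene is known to respond to it. Activity-high neurons had 3 or more UMIs of the immediate early genes Arc, Npas4, Egr4 and Ptgs2 together after thinning to 10000 UMIs, activity-zero neurons had none, and these 4 genes were left out of the results. Activity here names the RNA of these genes in dissociated cells, and whether it arose in the animal or during dissociation was not tested. Nptx2 was called higher in L2/3-Calb1, L5-S100b and L6-Npy. In L2/3-Calb1, which was tested on the unsorted libraries, activity-zero neurons had 7.66, 5.23 and 29.0 CPM of Nptx2 and activity-high neurons 86.7, 58.7 and 88.0 CPM. The groups did not overlap, with a log2 fold change of 2.47 (SE 0.291, 5.56-fold, edgeR adjusted p = 1.16e-09), from 3 to 18 UMIs in the activity-zero neurons of a library, and 1.66% of 7894 genes were called. In L6-Npy, values of 32.5, 12.4, 56.2 and 35.6 CPM stood against 70.4, 74.3, 78.2 and 121 CPM, with a log2 fold change of 1.33 (SE 0.129, 2.51-fold, edgeR adjusted p = 1.55e-14, 2.1% called). In L5-S100b, values of 47.9, 22.1, 24.2 and 42.1 CPM stood against 61.4, 58.5, 65.3 and 69.2 CPM, with a log2 fold change of 0.84 (SE 0.116, 1.79-fold, edgeR adjusted p = 1.71e-06, 5.63% called). All libraries were higher in these 3 subtypes and the groups did not overlap in any of them. How often the groups of other genes did not overlap was not counted.

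L6-Syt6 showed a small difference in Nptx2, at 20.6, 20.1, 23.7 and 22.2 CPM against 21.4, 23.2, 29.0 and 28.9 CPM. All 4 libraries were higher, with a log2 fold change of 0.23 (SE 0.0869, edgeR adjusted p = 0.0480), under the size for a call, in a comparison that called 7.7% of genes. In L2/3-Rorb 3 of 4 libraries were higher, with a log2 fold change of 0.37 (SE 0.406, edgeR adjusted p = 0.809, 1.45% called). Against L6-Syt6, the log2 fold change was larger by 1.11 (SE 0.195, edgeR adjusted p = 5.85e-05, 5.29% called) in L6-Npy and by 0.59 (SE 0.161, edgeR adjusted p = 0.00769, 7.93% called) in L5-S100b. The difference in L2/3-Rorb was 0.16 (SE 0.414, edgeR adjusted p = 0.901, 3.61% called). L2/3-Calb1 had no interaction test, and Nptx2 did not pass the filter in L5-Bcl6 and L5-Htr2c, where 1.27% and 0.786% of genes were called.

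Neither Nptx1 nor Nptxr was called by activity in any subtype. Nptxr had lower values in activity-high neurons of L2/3-Rorb (log2 fold change −0.38, SE 0.0636, edgeR adjusted p = 8.72e-06) and L5-S100b (−0.25, SE 0.0406, edgeR adjusted p = 2.05e-05), lower in 4 of 4 libraries each but under the size for a call. In L6-Syt6 it was −0.42 (SE 0.117, edgeR adjusted p = 0.00862), with 59.2, 42.0, 32.3 and 42.2 CPM in activity-zero and 27.6, 34.6, 33.4 and 38.1 CPM in activity-high neurons. Unsorted replicate 3 did not show the lower value, and without it the log2 fold change was −0.56 and called (edgeR adjusted p = 0.000471). Without unsorted replicate 1 it was −0.13 (edgeR adjusted p = 0.321). In L6-Npy, Nptxr was at 0.05 (SE 0.0404), which differed from L6-Syt6 by 0.48 (SE 0.113, edgeR adjusted p = 0.00275), under the size for a call. For Nptx1 the log2 fold changes were −0.11 to 0.03 in 6 subtypes. In L5-Bcl6 it was −0.62 (SE 0.180, edgeR adjusted p = 0.0877), with 161, 46.5, 93.8 and 152 CPM in activity-zero and 79.5, 17.4, 133 and 72.6 CPM in activity-high neurons. Again unsorted replicate 3 went the other way, and without it the value was −1.07 and called (edgeR adjusted p = 1.57e-05), whereas without unsorted replicate 1 it was −0.38 (edgeR adjusted p = 0.653).

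**Figure D5:**
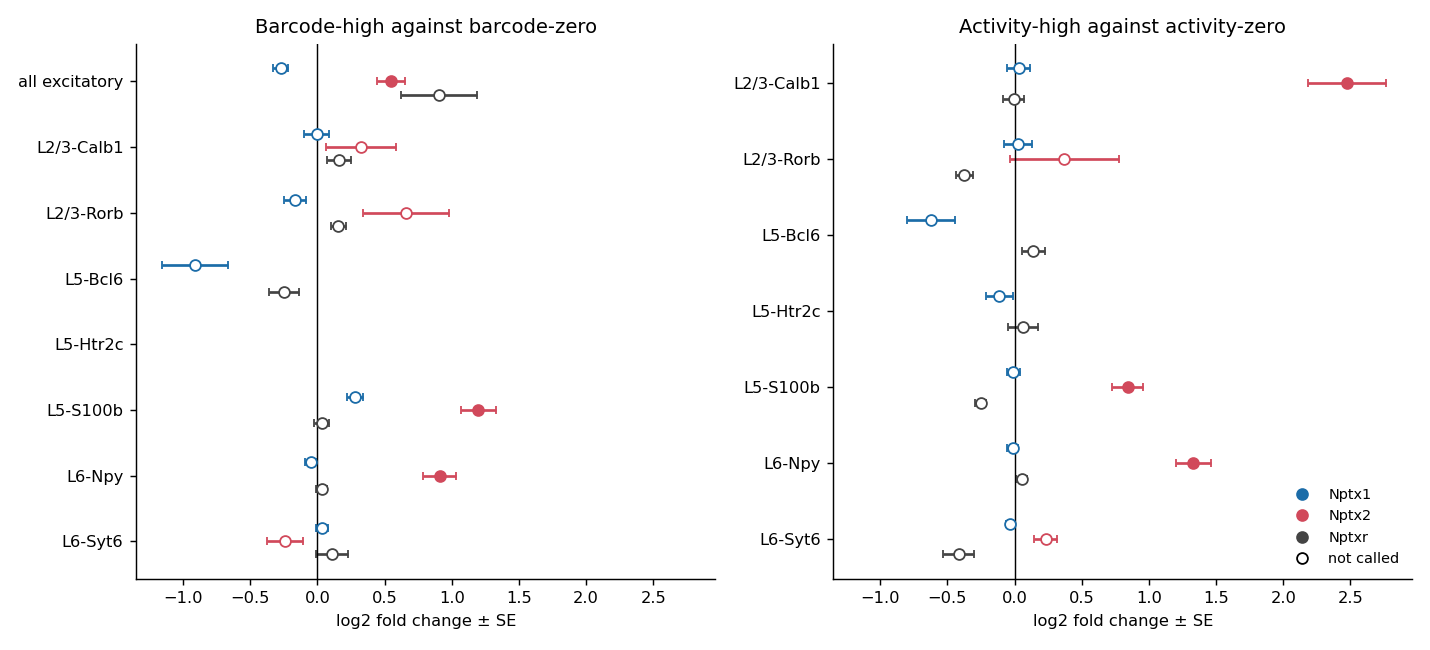
Log2 fold changes ± SE of Nptx1, Nptx2 and Nptxr from edgeR, for barcode-high against barcode-zero (left) and activity-high against activity-zero neurons (right), by subtype. Filled circles were called and open circles were not. Nptx2 is the member with filled circles, in 3 rows on the left and 3 on the right.

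Barcode and activity moved together in most libraries, so each was looked at within the other, in strata chosen after seeing the data. In unsorted replicate 2 of L2/3-Rorb, barcode-high neurons had fewer activity UMIs on average than barcode-zero neurons (6.60 against 7.38). The same held in unsorted replicate 3 of L5-Bcl6 (2.79 against 4). In L5-S100b, activity-high neurons had a median of 12 to 25 barcode UMIs per library and activity-zero neurons 4.5 to 13. Among neurons with under 3 activity UMIs, Nptx2 was called higher in barcode-high neurons of L5-S100b (log2 fold change 1.52, SE 0.215, edgeR adjusted p = 1.47e-05) and L6-Npy (1.00, SE 0.184, edgeR adjusted p = 0.00129). Among neurons with 3 or more, it was not called, at 0.70 (SE 0.223, edgeR adjusted p = 0.223) and 0.41 (SE 0.178, edgeR adjusted p = 0.563). Whether the strata differ was not tested. Among barcode-zero neurons, the activity contrast called Nptx2 in L2/3-Calb1 (2.42, SE 0.419, edgeR adjusted p = 6.28e-05). It did not in L6-Npy (0.62, SE 0.334, edgeR adjusted p = 0.686), and in L5-S100b Nptx2 did not pass the filter there.

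The other genes of the pathway were read from fixed lists. The AMPA receptor subunits Gria1 to Gria4, the partners of the pentraxins on the synaptic surface, were tested in all 14 comparisons and none was called. These comparisons called 0.0686% to 7.7% of all genes, so no call in so short a list says little. The median log2 fold change of the subunits in the barcode comparison was −0.14 in L5-S100b and 0.07 in L6-Npy, beside −0.0036 and −0.0026 over all genes. In L5-S100b, Gria3 was at 0.18 (SE 0.0601, edgeR adjusted p = 0.0654) and Gria4 at −0.32 (SE 0.109, edgeR adjusted p = 0.0790), while Gria1 was at −0.22 (SE 0.0574, edgeR adjusted p = 0.0155), under the size for a call. Of the 8 AMPA receptor partners and scaffolds, Grip1, a scaffold that binds the receptor's tail, was called once, lower in activity-high neurons of L5-S100b (−0.56, SE 0.113, edgeR adjusted p = 0.000495). That comparison called 5.63% of all genes. Adam10 and Adam17, surface proteases of which the latter is known to release NPTXR, were not called in any comparison that tested them, with a median of −0.43 by activity in L5-S100b. In the other comparisons the median of those tested was −0.24 to 0.18. No call here too lies near the shares of all genes called.

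Of 11 other secreted or surface synapse organizers, 5 of the 9 tested were called by activity in L5-S100b, beside 5.63% of all genes tested. The cerebellins Cbln4 (2.67, SE 0.448, edgeR adjusted p = 4.23e-05) and Cbln2 (1.66, SE 0.169, edgeR adjusted p = 4.76e-09) and the leucine-rich protein gene Lgi2 (0.74) rose, and Cbln1 (−0.83, SE 0.131, edgeR adjusted p = 1.78e-05) and the C1q-like gene C1ql3 (−0.53) fell. The median of the list was 0.26. Cbln4 (2.44) and Cbln2 (2.14) were also called higher in L2/3-Rorb (1.45% of all genes called), and none was called in the other 5 subtypes. By barcode, none was called in L5-S100b or L6-Npy, while in L6-Syt6, where 1.67% of all genes were called, C1ql3 rose (1.00, SE 0.245, edgeR adjusted p = 0.0404) and Cbln1 (−0.58) and Cbln2 (−0.53) fell. Over all excitatory neurons, Lgi3 rose (0.80) and Cbln2 fell (−1.15), beside 2.34% of all genes called.

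Activity-regulated genes were read beside Nptx2, and they were chosen for the same property as the 4 genes that split the neurons, so their rise in the activity comparison is no independent evidence. There, 7 to 14 of the 11 to 15 genes tested per subtype were called higher and none lower, beside 0.786% to 7.7% of all genes called in either direction, with a median log2 fold change of 1.77 in L6-Npy, 1.29 in L5-S100b and 1.06 in L6-Syt6. By barcode, 9 of 15 were called higher in L6-Npy (median 0.58, 0.801% of all genes called), led by Nr4a2 (1.55, SE 0.108, edgeR adjusted p = 4.41e-12) and Egr2 (1.23, SE 0.155, edgeR adjusted p = 4.27e-06), both transcription factors. In L5-S100b 3 of 15 were called (median 0.17, 2.7% of all genes called), namely Dusp5 (0.94, SE 0.277, edgeR adjusted p = 0.0368), Nr4a1 (0.56) and Homer1 (0.50). In L6-Syt6, where Nptx2 was not called, 4 of 15 were (median 0.41, 1.67% of all genes called): Bdnf (0.68), Egr2 (0.56), Nr4a2 (0.55) and Junb (0.53). L2/3-Calb1 had Egr2 alone (1.13, 0.18% of all genes called), L2/3-Rorb Vgf alone (0.52, 0.139%), all excitatory neurons Bdnf alone (1.20, 2.34%), and L5-Bcl6 none (0.0686%). Gria1, Homer1, Lgi2, Nr4a2 and Junb were named after their values were seen.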

How the data were processed

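Cells of vmPFC were profiled with Chromium 3′ v3 libraries, and reads were counted by the authors in Cell Ranger 3.0.2 against mm10 with the virus barcodes added. The deposited matrices hold raw UMI counts of called cells, and the deposited metadata name the subtype of the 9368 excitatory neurons. The feature named barcode was taken as the pooled count of the viral barcodes, which the sources used here do not state, and entered neither library sizes nor tests (0.0319% to 0.0384% of UMIs). Per-target calls were not analysed here. Groups were taken from the sample titles.

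Members and lists were chosen with earlier results of these data known. For levels, counts were summed per library and subtype and divided by the total (CPM). For the contrasts, sums per library and cell group (at least 10 cells each) were tested in edgeR 4.0.16 (TMM, filterByExpr, glmQLFit) with the library as a block, and SE is the absolute log2 fold change divided by the square root of F. The authors tested single cells, which are not replicates, so that test was not used. The libraries pair the groups by design. Correlations of the paired groups' deviations were 0.300 to 0.944 where 4 libraries entered, and −0.0943 to 0.133 where 3 did. With 3 or 4 libraries, p-values set the difference between paired groups against how much that difference varies from library to library. The steps were checked on simulated counts.

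Cells outside the metadata passed 500 to 8000 genes, 1000 to 60000 UMIs and 20% mitochondrial UMIs, and 11895 were clustered in scanpy 1.11.5 (2000 variable genes without the members, 30 components, 15 neighbours, Leiden resolution 1.0). A class needed 3 markers. No doublet caller was run, clusters with markers of several classes were left unnamed (1134 cells in unnamed clusters), and 371 excitatory-like cells were not used. The genes named in a list are its 2 highest and 2 lowest called genes, or the highest and lowest where none was called, and 3 genes most like each member are named. Alternatives were DESeq2 1.42.0, no filter, no block, each library left out, other depth ranges and other limits for the groups. The interaction tests, the strata by activity or barcode, and the removal of oligodendrocyte-precursor-like cells from the non-neuronal background were added after seeing the data. Protein and promoter sequences are not shown.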

Additional observations from a re-analysis of the deposited data

Results flagged for a closer look

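The following results were picked out because the same contrast differed between subtypes in a test of the difference itself (edgeR interaction against L6-Syt6, adjusted over all genes). The barcode log2 fold change of Nptx2 was larger by 1.44 in L5-S100b and by 1.16 in L6-Npy. The activity log2 fold change of Nptx2 was larger by 0.59 in L5-S100b and by 1.11 in L6-Npy. That of Nptxr was larger by 0.48 in L6-Npy, where Nptxr was at 0.05 against −0.42 in L6-Syt6. This difference is under the size for a call, and the value in L6-Syt6 was −0.13 without unsorted replicate 1. Nptxr in L6-Syt6 rests on low counts, at 27.6 to 59.2 CPM. No group held 4 or more samples, so single outlying libraries were not searched for.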

How the results depend on the processing

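Of 465 alternatives for the members' fold changes and subtype ratios, 437 kept their direction or stayed uncalled and on the same side of the call, and none of a called value reversed. Without the replicate block, Nptx2 was no longer called by barcode in L6-Npy (0.91, edgeR adjusted p = 0.405) and all excitatory neurons (0.54), or by activity in L6-Npy (1.32, adjusted p = 0.105); the block changed no other call of a member. Over all excitatory neurons, the Nptx2 barcode value ranged from 0.44 to 0.64 on leaving out a library, and was 0.49 with 1 or more barcode UMIs. Strata chosen after seeing the data also ended calls: with 3 or more activity UMIs, the barcode value of Nptx2 was 0.41 in L6-Npy, 0.70 in L5-S100b and 0.39 over all excitatory neurons, and in barcode-zero neurons the activity value in L6-Npy was 0.62. Nptxr over all excitatory neurons became called under DESeq2 (0.89), under 3 activity UMIs (0.91), at 3 or more (1.21) and without the sorted library (0.71 to 1.27 over the libraries left out). Nptx1 over all excitatory neurons became called at 20 or more barcode UMIs (−0.54). Nptx1 in L5-Bcl6 became called by barcode without the filter (−0.87), at 20 or more barcode UMIs (−1.53), under 3 activity UMIs (−0.83) or without unsorted replicate 3 (−1.61 to −0.33 over the libraries left out), and by activity without the filter (−0.63), after thinning (−0.89), at 15000 to 40000 UMIs (−0.81), at 5 or more activity UMIs (−0.89) or without unsorted replicate 3 (−1.07 to −0.38). Nptxr by activity in L6-Syt6 ranged from −0.56 without unsorted replicate 3 to −0.13 without unsorted replicate 1. The log2 ratio of Nptxr between L6-Npy and L6-Syt6 was 4.40 and became 4.20 as the mean of per-cell CPM and 4.60 at 15000 to 40000 UMIs. Of 126 alternatives for subtype levels 109 stayed within 1 SD, and the farthest was Nptx2 in L5-Htr2c (3.72 to 7.22 CPM at 15000 to 40000 UMIs). Over the alternatives, the genes called by barcode ranged from 27 to 453 in L5-S100b (310 as reported), 0 to 228 in L6-Npy (83), 27 to 577 in L6-Syt6 (218), 2 to 62 in L2/3-Calb1 (15), 0 to 42 in L2/3-Rorb (14), 0 to 31 in L5-Bcl6 (6) and 0 to 1386 over all excitatory neurons (331). The counts of 0 in edgeR came without the block in L6-Npy (406 genes at an unadjusted p under 0.05) and L2/3-Rorb (285), with 1 or more barcode UMIs (573) or at 15000 to 40000 UMIs (488) in L5-Bcl6, and without unsorted replicate 1 (1559), 2 (1515) or 3 (1539) over all excitatory neurons. Those in DESeq2 were in L2/3-Rorb (132) and L5-Bcl6 (46). By activity they ranged from 90 to 706 in L5-S100b (632), 73 to 290 in L6-Npy (216), 634 to 1220 in L6-Syt6 (988), 30 to 148 in L2/3-Calb1 (131), 31 to 172 in L2/3-Rorb (139), 44 to 124 in L5-Bcl6 (101) and 11 to 57 in L5-Htr2c (56). The causes were not tested. Barcode in L5-Bcl6 at 3 or more activity UMIs and activity in barcode-zero neurons of L2/3-Rorb and L5-Bcl6 were not run for want of cells, and the interaction tests had no alternatives. Nptx2 had under 10 UMIs per library in some groups.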
